A study of Rattus norvegicus with 12 samples.

Results

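Cd74, RT1-Da, RT1-Ba and RT1-Bb are the MHC class II presentation genes described here, in rat kidney of different ages and in a kidney tissue built in culture. Every probe set whose only gene symbol in the platform annotation was one of these 4 names was taken. That gave 8 probe sets (1 for Cd74, 1 for RT1-Da, 4 for RT1-Ba and 2 for RT1-Bb) of the 31042 on the array, of which 20826 carried 1 gene symbol. The 4 genes were chosen from earlier results on these same arrays, in which their high signal in the 4-week kidney had already been seen, so their levels and differences are given as a description and without a test. RNA from 12 samples was hybridised, each to 1 Affymetrix array. Embryonic kidneys were dissected on day 13 (group E13, n = 3) or day 18 (group E18, n = 4), and postnatal kidneys at 4 weeks of age (group Wk4, n = 3). The embryonic kidneys were processed straight after dissection. The other group (recombined tissue, n = 2) combined unbranched UBs formed in vitro with MM, kept in culture for 6 days. UB stands for the ureteric bud, the epithelium that makes the collecting ducts, and MM for the metanephric mesenchyme, the source of the nephrons. The study asked whether such tissue takes the course of the normal kidney, and used a 3-fold difference as its measure of change. No strain, sex, RT1 haplotype, treatment or pooling is named in the labels for any group, and whether the replicates were separate animals or cultures is not said. P-values below thus rest on the spread among these samples alone, and that spread may be technical.

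MHC class II molecules present peptides from proteins taken up by a cell to CD4+ T cells. An alpha and a beta chain are assembled in the endoplasmic reticulum with the invariant chain, the product of Cd74, which fills the peptide groove and leads the complex to endosomes. There proteases degrade the invariant chain and the DM molecule exchanges its last fragment for peptide. In the rat, the MHC is named RT1: RT1-Da encodes the alpha chain of the RT1-D molecule (the counterpart of human HLA-DR), and RT1-Ba and RT1-Bb encode the alpha and beta chains of RT1-B (the counterpart of HLA-DQ). Dendritic cells and B cells express class II constitutively and macrophages can express it, and the adult kidney holds a network of such cells in its interstitium. Tubular epithelium can express it under interferon gamma. The chain genes are transcribed when CIITA joins the RFX complex and its partners on the X and Y boxes before each gene. Several of the chain genes are highly polymorphic between inbred rat strains.

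The sequences before the start sites are shown because the best-known control elements of class II genes lie there. Each is the 250 bases upstream of the start in the RefSeq annotation of the GRCr8 rat assembly, written 5′ to 3′ on the gene's own strand. RefSeq promoters were found for all 4 genes, for RT1-Db1, the beta chain partner of RT1-Da, which is printed with them, and for RT1-DMa and B2m, which are described only. Capitals mark matches, on either strand, to ATTGG (the core of the Y box, CCAAT when reversed), ACNGATG (taken here as the core of the X1 box) and TGACGTCA (the cyclic AMP response element). No motif match overlapped another in these 5 sequences. The regions are chr18:56526956-56527205 (plus strand) for Cd74, chr20:4515165-4515414 (plus) for RT1-Da, chr20:4576807-4577056 (plus) for RT1-Ba, chr20:4604119-4604368 (minus) for RT1-Bb and chr20:4560163-4560412 (minus) for RT1-Db1.
Cd74: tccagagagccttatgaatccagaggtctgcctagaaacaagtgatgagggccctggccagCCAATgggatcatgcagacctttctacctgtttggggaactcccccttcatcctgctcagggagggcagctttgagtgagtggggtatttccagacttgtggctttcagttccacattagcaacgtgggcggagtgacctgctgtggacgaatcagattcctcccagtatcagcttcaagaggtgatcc
RT1-Da: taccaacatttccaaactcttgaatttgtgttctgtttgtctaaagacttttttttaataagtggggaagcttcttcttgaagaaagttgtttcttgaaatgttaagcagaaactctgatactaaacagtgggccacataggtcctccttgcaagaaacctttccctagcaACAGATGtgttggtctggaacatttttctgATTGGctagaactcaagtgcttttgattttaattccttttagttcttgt
RT1-Ba: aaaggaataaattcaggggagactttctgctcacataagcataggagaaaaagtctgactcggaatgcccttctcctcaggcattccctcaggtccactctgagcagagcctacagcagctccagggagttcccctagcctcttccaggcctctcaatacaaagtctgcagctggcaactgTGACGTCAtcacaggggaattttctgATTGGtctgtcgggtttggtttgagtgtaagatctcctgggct
RT1-Bb: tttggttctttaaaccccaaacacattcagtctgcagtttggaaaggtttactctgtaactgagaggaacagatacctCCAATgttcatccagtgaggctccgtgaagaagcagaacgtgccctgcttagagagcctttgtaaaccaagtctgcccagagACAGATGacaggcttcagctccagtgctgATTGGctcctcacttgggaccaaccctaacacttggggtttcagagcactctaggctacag
RT1-Db1: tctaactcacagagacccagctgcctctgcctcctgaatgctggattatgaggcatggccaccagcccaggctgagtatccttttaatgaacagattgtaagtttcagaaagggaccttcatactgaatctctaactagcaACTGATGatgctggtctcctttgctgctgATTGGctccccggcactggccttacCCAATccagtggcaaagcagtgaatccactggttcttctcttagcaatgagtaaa
In RT1-Da, the X1 core ended 23 bases before a Y core on the same strand, and in RT1-Bb and RT1-Db1 the gap was 22 bases. RT1-Ba held no match to ACNGATG in this window; its TGACGTCA ended 18 bases before the Y core. RT1-DMa, of the DM molecule, had an X1 core 23 bases before a Y core, and B2m, the class I light chain, a Y core only. Cd74 held 1 reversed Y core, 189 to 185 bases before the start, and neither of the other motifs. Of 33469 promoters of this length, 34% held the Y core, 8.55% the X1 core and 1.59% the TGACGTCA element on either strand, while an X1 core followed by a Y core within 40 bases on one strand stood in 121 (0.362%). The limit of 40 bases was chosen after these sequences had been seen. A match is a description of the letters only.

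Levels are given as the deposited probe set signal, a linear intensity scaled to the same trimmed mean on every array, with mean ± SD over replicates. Differences are on the log2(signal + 271) scale ± SE from a limma fit of all 12 arrays, on which dim probe sets have smaller differences than on a plain log scale. A gene outside the 4 was called when its adjusted p from limma was under 0.05 and its difference at least 3-fold. Median signals of the arrays ran from 799 to 1020, and precision is limited by how few arrays each group has. A filter on dim probe sets kept 22599 of the 31042 probe sets and 7 of the 8 described here. The probe set it removed was 1371065_at of RT1-Bb. A probe set bright in a single group could pass this filter through that group. This held, among others, for Umod, Cxcl11, Icoslg and RT1-Db1 1370383_s_at at Wk4, and for Marchf1 and Itgax in recombined tissue. Their adjusted p-values are thus no separate support for a difference of that group. Levels of different probe sets are not compared, since each has its own response. Markers of nephron and collecting duct differed with age: 10 of 14 kidney epithelium markers were higher at Wk4 than at E13 and 2 lower. Of all kept probe sets, 9.39% were called higher and 8.46% lower there. The markers were led by Umod (8.28 ± 0.24, limma adjusted p = 1.9e-12) and Slc34a1 (8.14 ± 0.27, adjusted p = 6.04e-12). At E13, Umod read 174 ± 79.0 (SD, n = 3) and Slc34a1 226 ± 141 (SD, n = 3).

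Cd74, the invariant chain, was dim before birth and among the brightest probe sets at 4 weeks. Its signal was 259, 96.1 and 392 in E13 replicates 1 to 3 and 670, 604, 576 and 466 in the 4 E18 replicates. The 3 Wk4 kidneys read 50612, 48850 and 53077, and the 2 recombined tissues 493 and 427. Every Wk4 array was thus far above all others, its value ranking between the 98.9 and 99.1 percentile of its array, while the other 9 arrays lay between the 11.7 and 44.4 percentile. Group means were 249 ± 148 (SD, n = 3) at E13, 579 ± 84.9 (SD, n = 4) at E18 and 460 ± 46.6 (SD, n = 2) in recombined tissue. Ordered by mean, E13 came first, then recombined tissue, E18 and Wk4; recombined and E18 arrays overlapped, and the E13 arrays lay below both without overlap. Against E18, the Wk4 mean was 87.8 times higher (difference 5.91 ± 0.18), and against recombined tissue 111 times higher (recombined minus Wk4, -6.13 ± 0.22).

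RT1-Da, the alpha chain of RT1-D, had the same pattern. E13 replicates 1 to 3 read 373, 605 and 449, and the E18 replicates 357, 672, 767 and 707. At Wk4 the signals were 31686, 26819 and 29261, against 401 and 423 in recombined tissue. The Wk4 kidneys stood apart from every other array, and the remaining 3 groups overlapped one another. In order of their means these were recombined tissue (412 ± 16.2, SD, n = 2), E13 (476 ± 118, SD, n = 3) and E18 (626 ± 184, SD, n = 4), and no neighbours in that order differed by more than their spread. The Wk4 mean, 29255 ± 2434 (SD, n = 3), was 46.8 times that of E18 (difference 5.06 ± 0.18) and 71.0 times that of recombined tissue (recombined minus Wk4, -5.43 ± 0.22).

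**Figure D1:**
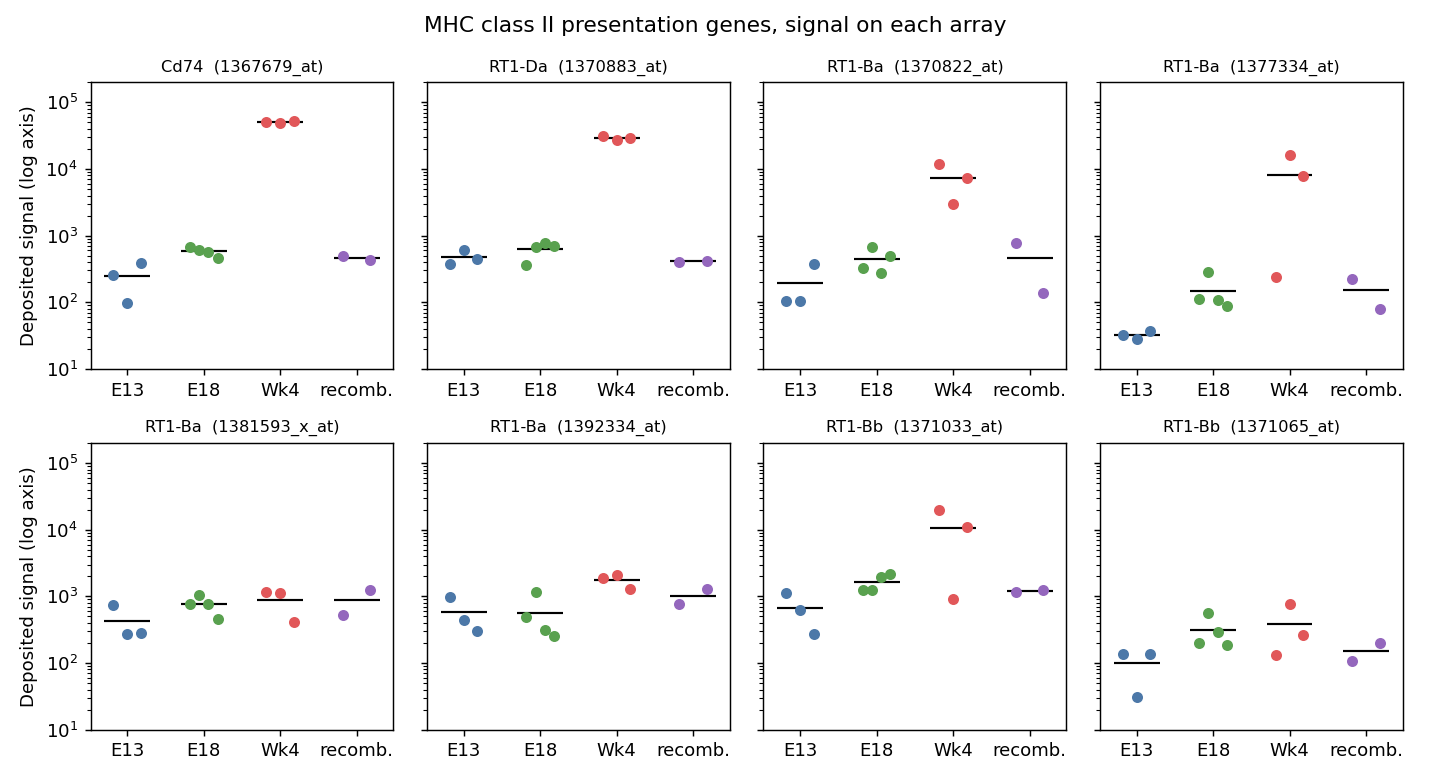
Deposited signal (log axis) of the 8 probe sets of Cd74, RT1-Da, RT1-Ba and RT1-Bb on each array, in 1 panel per probe set, with points for arrays in replicate order and a bar for the group mean. The Wk4 arrays lie above all others for Cd74 (48850 to 53077) and RT1-Da (26819 to 31686), while several RT1-Ba and RT1-Bb probe sets spread widely at Wk4.

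RT1-Ba, the alpha chain of RT1-B, was read by 4 probe sets that did not tell the same story. On 1370822_at the E13 arrays gave 103, 106 and 380, the E18 arrays 332, 671, 273 and 500, and recombined tissue 781 and 137, while the Wk4 arrays gave 11840, 3014 and 7431. All Wk4 arrays were above all others on this probe set, with a Wk4 minus E18 difference of 3.27 ± 0.41. On 1377334_at the E13 values were 32.5, 28.3 and 37.7, the E18 values 111, 284, 108 and 88.2, and those of recombined tissue 226 and 80.7. Its Wk4 values were 237, 16221 and 7951, so that Wk4 replicate 1 lay inside the range of the E18 arrays, through E18 replicate 2 alone, and the other two far above it (difference 3.31 ± 0.79). The other probe sets had smaller differences. On 1392334_at the Wk4 arrays read 1883, 2072 and 1305 and the E18 arrays 251 to 1163, without overlap (ratio of means 3.16, difference 1.39 ± 0.34). On 1381593_x_at, whose suffix marks probes that may bind related transcripts, the values were 1150, 1126 and 410 at Wk4 and 460 to 1048 at E18 (0.12 ± 0.33), and these groups overlapped.

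RT1-Bb, the beta chain of RT1-B, was bright in part of the Wk4 kidneys only. Its brighter probe set, 1371033_at, read 1123, 622 and 277 at E13, and 1239, 1240, 1963 and 2191 at E18. The Wk4 arrays gave 19846, 900 and 10858, and recombined tissue 1169 and 1251. Wk4 replicate 2 was thus below every E18 array and the other Wk4 arrays were above all, for a Wk4 minus E18 difference of 1.77 ± 0.68. The second probe set, 1371065_at, stayed dim, between 30.8 and 766 over the 12 arrays, and its Wk4 and E18 arrays overlapped (0.10 ± 0.30), while its E18 arrays (186 to 565) lay above its E13 arrays (30.8 to 135).

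The replicates at Wk4 were close for some class II probe sets and far apart for others. The highest Wk4 array over the lowest was 1.09 for Cd74, 1.18 for RT1-Da and 1.11 for the RT1-Db1 probe set 1370383_s_at. For RT1-Ba it was 3.93 on 1370822_at and 68.6 on 1377334_at, and for RT1-Bb 22.1 on 1371033_at. RT1-Db1 also has a second probe set, 1370382_at, which read 5427, 504 and 3105 at Wk4, a 10.8-fold range. Replicate 1 was the highest and replicate 2 the lowest on the RT1-Bb probe set, on RT1-Ba 1370822_at and on RT1-Db1 1370382_at, and the order was turned round on RT1-Ba 1377334_at. Replicate 3 lay near the middle each time: its signal was 7431 against a mean of 7427 for replicates 1 and 2 on RT1-Ba 1370822_at, and 7951 against 8229 on 1377334_at. On RT1-Bb 1371033_at it was 10858 against 10373, and on RT1-Db1 1370382_at 3105 against 2966. Among 14467 kept probe sets with a mean signal of at least 1000 at Wk4, 13 had replicates at least 8-fold apart, 9 of them with 1 gene symbol, and 3 were class II probe sets (RT1-Ba 1377334_at, RT1-Bb 1371033_at and RT1-Db1 1370382_at). Of those 13, the same 3 class II probe sets were the ones whose replicate 3 was within 10% of the mean of the other two. This pattern was picked out after the values were seen, and it has no test.

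**Figure D2:**
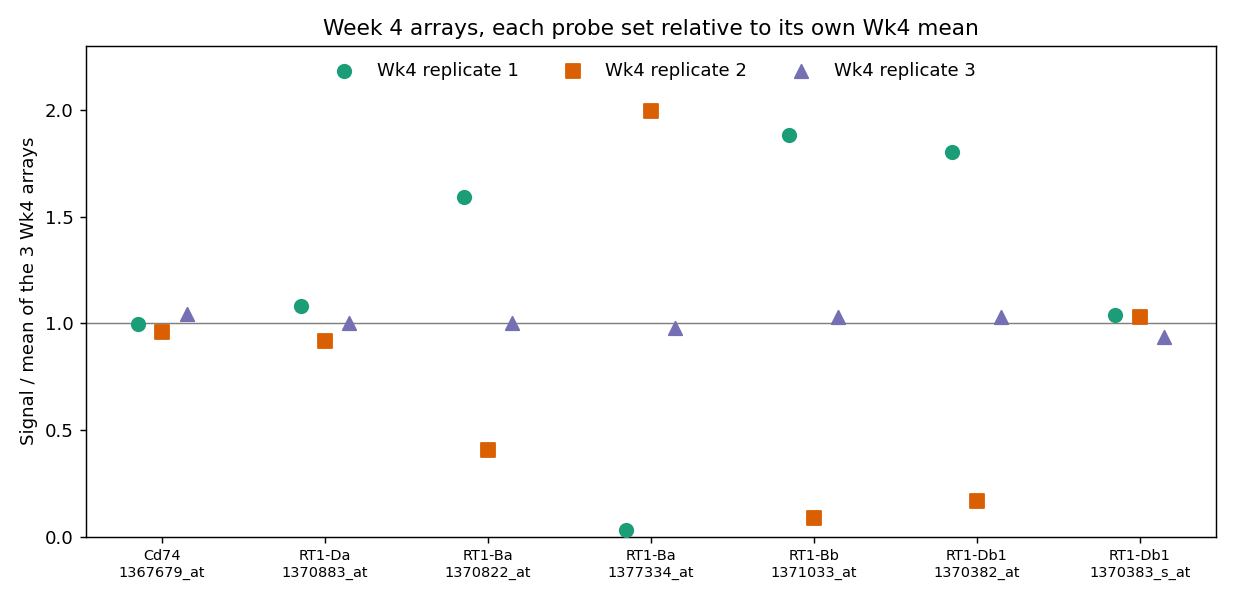
Signal of each Wk4 replicate divided by the mean of the 3 Wk4 arrays (linear axis from 0), for the Cd74, RT1-Da, RT1-Ba, RT1-Bb and RT1-Db1 probe sets that were bright at Wk4, with a marker shape for each replicate and a line at 1. The replicates meet at the line for Cd74, RT1-Da and RT1-Db1 1370383_s_at and part on the other 4, with replicate 3 near the line throughout.

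The size of the Wk4 change in RT1-B therefore rested on which array was used, and that of Cd74 (5.88 to 5.94 without any 1 Wk4 array) and RT1-Da (5.01 to 5.12) did not. Without Wk4 replicate 1, the Wk4 minus E18 difference of RT1-Bb 1371033_at was 0.94, and without replicate 2 it was 2.99. For RT1-Ba 1377334_at it was 4.82 without replicate 1 and 2.31 without replicate 2, and for RT1-Ba 1370822_at 2.85 and 3.79. Probe sets of the same gene differed in the split: RT1-Ba 1370822_at and 1377334_at ran in opposite replicate order, and RT1-Db1 was level on 1370383_s_at and far apart on 1370382_at. What set the arrays apart was not tested.

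Over the 4 genes, each by its probe set of highest mean signal, the median Wk4 minus E18 difference was 4.17, beside a median of -0.12 over all kept probe sets. From E13 to Wk4 it was 4.61 (all probe sets, -0.11), and in recombined tissue minus Wk4 -4.40 (all probe sets, 0.19). Of the 8 probe sets, 5 were past 3-fold higher at Wk4 than at E18, by the difference alone. Of all kept probe sets, 5.76% were called higher and 5.43% lower in that comparison. A call also needs an adjusted p under 0.05, so these shares, here and below, are not on the same measure as the counts of the 8. The same 5 were past 3-fold against E13, where 9.39% of all were called higher and 8.46% lower. They were also more than 3-fold lower in recombined tissue than at Wk4, where 7.88% were called higher and 7.32% lower. These Wk4 comparisons share the Wk4 arrays, and the choice of the genes used their Wk4 signal, so nothing is read from the counts.

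Between the groups without Wk4, no probe set of the 4 genes reached 3-fold on the log2(signal + 271) scale. The E18 minus E13 differences ran from -0.08 (RT1-Ba 1392334_at) to 1.10 (RT1-Bb 1371033_at), with a median over the genes of 0.69, in a comparison where 1.93% of all kept probe sets were called higher and 0.407% lower. Recombined minus E13 ran from -0.12 (RT1-Da) to 0.75 (RT1-Bb 1371033_at), with a median over the genes of 0.54, where 3.95% were called higher and 0.912% lower. In recombined minus E18 the range was -0.42 (RT1-Bb 1371065_at) to 0.74 (RT1-Ba 1392334_at), and the median -0.28, where 2.73% were called higher and 1.67% lower. On this scale the differences of dim probe sets are small, and ratios of mean signals passed 3-fold in 3 cases, all without overlap of the arrays: RT1-Ba 1377334_at (4.50) and RT1-Bb 1371065_at (3.12) for E18 over E13, and RT1-Ba 1377334_at (4.68) for recombined tissue over E13. Without a pseudocount the medians were 1.40 for E18 minus E13 and 1.05 for recombined minus E13. Against E18, the arrays of recombined tissue overlapped those of the embryonic kidney on all 8 probe sets. On bulk RNA, fewer cells of a type and less RNA per cell cannot be told apart.

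Other genes of the class II pathway were measured for 14 of 20 listed names, and 13 passed the filter on dim probe sets. Rfxank, a subunit of the RFX complex, did not pass (means of 145 to 255 over the groups). In Wk4 minus E18, 6 of the 13 rose and 0 fell, where 5.76% of all kept probe sets were called higher and 5.43% lower. RT1-Db1, the beta chain of RT1-D, rose most, with 322 ± 69.7 (SD, n = 4) at E18 and 7430 ± 422 (SD, n = 3) at Wk4 on 1370383_s_at, which differed by 3.70 ± 0.22 (limma adjusted p = 3.48e-09). RT1-DMb, the beta chain of the peptide exchanger DM, read 1859 ± 182 (SD, n = 4) at E18 and 9516 ± 2038 (SD, n = 3) at Wk4, which differed by 2.18 ± 0.21 (adjusted p = 4.77e-07). RT1-DMa, its alpha chain, differed by 0.93 ± 0.24 (adjusted p = 0.00427) and stayed under 3-fold. RT1 genes have near-identical relatives, and signals of single chains can mix them.

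The endosomal proteases made up the other 4. Ctsh, an aminopeptidase, rose by 2.71 ± 0.12 (limma adjusted p = 3.02e-10), Lgmn, asparaginyl endopeptidase, by 2.48 ± 0.17 (adjusted p = 1.25e-08), Ctsl by 2.03 ± 0.13 (adjusted p = 1.14e-08) and Ctss, which cleaves the invariant chain in antigen presenting cells, by 1.61 ± 0.18 (adjusted p = 2.33e-06). These enzymes are lysosomal and not particular to class II cells. Ifi30, a reductase that unfolds antigens, differed by 0.56 ± 0.20 (adjusted p = 0.0287).

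The class II transcription factors did not reach 3-fold. Ciita, the class II transactivator, read 422 ± 197 (SD, n = 4) at E18 and 682 ± 202 (SD, n = 3) at Wk4, a difference of 0.49 ± 0.26 (limma adjusted p = 0.118). Rfx5 and Rfxap, subunits of RFX, were lower at Wk4 with differences of -1.14 ± 0.11 (adjusted p = 8.12e-07) and -0.73 ± 0.16 (adjusted p = 0.00138), both under 3-fold. Marchf1 and Marchf8, membrane ubiquitin ligases of which Marchf1 removes class II from the surface, differed by 0.44 ± 0.30 (adjusted p = 0.23) and 0.42 ± 0.11 (adjusted p = 0.00457). In Wk4 minus E13 again 6 of the 13 were higher and 0 lower: RT1-Db1, RT1-DMb, Ctss, Lgmn, Ctsl and Ctsh. There 9.39% of all kept probe sets were called higher and 8.46% lower. From E13 to E18 limma called 0 of the 13, with 8 at an unadjusted p under 0.05 and 4 at an adjusted p under 0.05, led by Lgmn (1.29 ± 0.17) and Ctss (1.16 ± 0.18).

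Recombined tissue split this pathway. Against E18, 3 of the 13 were higher and 0 lower: Ctss (2.75 ± 0.20, limma adjusted p = 3.05e-07), Marchf1 (2.47 ± 0.34, adjusted p = 8.61e-05) and Lgmn (2.07 ± 0.19, adjusted p = 2.1e-06). The shares of all kept probe sets called were 2.73% higher and 1.67% lower. Ctss read 20526 and 10796 in the 2 recombined tissues, above all Wk4 arrays (6171 to 7244), and Marchf1 2300 and 1239, above all other arrays (7.58 to 365). Against E13, 4 were higher, with RT1-DMa (1.63 ± 0.29, limma adjusted p = 0.000615) added to those 3, and 2 without recombined replicate 1. There 3.95% of all kept probe sets were called higher. RT1-DMb read 4973 and 2634, between the E18 arrays (1687 to 2116) and the Wk4 arrays (7366 to 11420). RT1-Db1 was at embryonic signals, 296 and 145 on 1370383_s_at, with a difference from E13 of -0.27 ± 0.26 (adjusted p = 0.479), and Ciita read 692 and 699 (0.43 ± 0.31, adjusted p = 0.32). Against Wk4, RT1-Db1 (-3.99 ± 0.26, adjusted p = 1.23e-08) and Ctsh (-2.89 ± 0.15, adjusted p = 9.15e-10) were lower and Marchf1 (2.03 ± 0.36, adjusted p = 0.000229) higher. Marchf1 passed the filter through the recombined arrays alone, so with either of them left out it was not tested in any comparison. Its call against Wk4 was also lost without the pseudocount, with 4 times the pseudocount and with a filter at the 60th percentile.

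**Figure D3:**
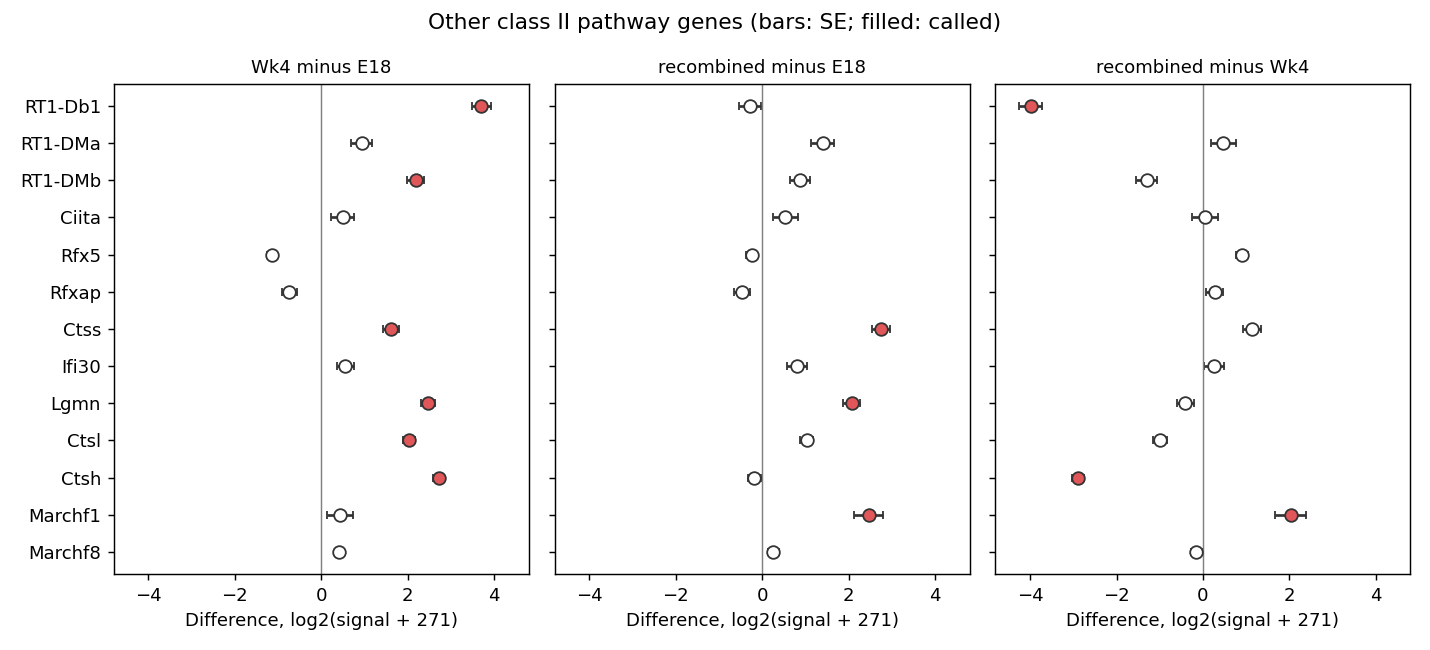
Differences on the log2(signal + 271) scale for the 13 tested genes of the class II pathway outside Cd74, RT1-Da, RT1-Ba and RT1-Bb, in Wk4 minus E18, recombined minus E18 and recombined minus Wk4, with bars for the SE and filled points for genes called by limma. RT1-Db1 lies at 3.70, -0.28 and -3.99 in the 3 panels and Ctss at 1.61, 2.75 and 1.14.

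Some MHC class I genes were also higher at Wk4. In Wk4 minus E18, 3 of 20 tested class I pathway genes rose and 0 fell, where 5.76% of all kept probe sets were called higher and 5.43% lower. Among the 3 were RT1-T24-4 (2.58 ± 0.19, limma adjusted p = 3.98e-08) and RT1-S3 (2.50 ± 0.24, adjusted p = 5.77e-07), both class I heavy chain genes of the RT1 region. B2m, the class I light chain, read 20707 ± 2163 (SD, n = 4) at E18, 98055 ± 7574 (SD, n = 3) at Wk4 and 54810 ± 11803 (SD, n = 2) in recombined tissue. In recombined tissue minus E13, 5 of the 20 rose (2 without recombined replicate 1), beside 3.95% of all kept probe sets. They were led by B2m (2.86 ± 0.16, limma adjusted p = 2.64e-08) and the immunoproteasome subunit Psmb8 (396 ± 161 at E13 and 2376 ± 669 in recombined tissue, adjusted p = 9.4e-05). Against E18, limma called 0 of the 20 in recombined tissue, with 9 at an unadjusted p under 0.05, the largest difference being that of Tap1, the peptide transporter (1.46 ± 0.27), and 3 without recombined replicate 2. In the cultured tissue B2m thus stood above its E13 signal by more than 3-fold.

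Interferon gamma response genes were counted at an adjusted p alone and at 3-fold. The share of all kept probe sets at an adjusted p alone was not computed, so nothing is read from those counts. In Wk4 minus E18, 10 of 15 tested genes were higher and 0 lower at an adjusted p under 0.05 (limma), with a median difference of 0.65 beside -0.12 over all kept probe sets. Of them 1 was past 3-fold, the chemokine gene Cxcl11 (2.45 ± 0.26, limma adjusted p = 1.39e-06). Beside it, 5.76% of all kept probe sets were called higher, so this count is not read as a result about the list. Recombined tissue had 10 of the 15 higher than E13 at an adjusted p under 0.05 (limma) and 5 past 3-fold (3 without recombined replicate 1). These 5 were led by the GTPase gene Gbp2 (2.88 ± 0.23, adjusted p = 6.64e-07) and Irf8, a transcription factor of myeloid cells (2.21 ± 0.23, adjusted p = 5.89e-06). In that comparison 3.95% of all kept probe sets were called higher. Cxcl11 was lower in recombined tissue than at Wk4 (-2.45 ± 0.31, adjusted p = 1.01e-05). Of 6 costimulation genes, 1 rose and 0 fell in Wk4 minus E18: Icoslg, the ligand of ICOS on T cells (2.92 ± 0.19, adjusted p = 8.99e-09). Cd74 at the cell surface also serves as a receptor for the cytokine MIF with Cd44. In a list of 5 tested genes of that signal, Ddt, a homologue of MIF, rose (2.05 ± 0.13, adjusted p = 1.03e-08) and the chemokine receptor gene Cxcr4 fell in Wk4 minus E18 (-2.62 ± 0.18, adjusted p = 1.57e-08), while Cd44 was higher in recombined tissue than at E18 (2.27 ± 0.37, adjusted p = 0.000337). Shares of all kept probe sets called were 5.76% higher and 5.43% lower in Wk4 minus E18, and 2.73% and 1.67% in recombined minus E18. The counts in these short lists are not read as results about the lists.

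Markers of the cells that carry class II were set beside these values. The summed signal of 21 macrophage markers ran from 11541 to 13366 at E13, 25435 to 30264 at E18 and 47225 to 53186 at Wk4, and was 271559 and 139775 in the 2 recombined tissues. Of 18 tested macrophage markers, 1 rose in Wk4 minus E18, the lysozyme gene Lyz2 (1.92 ± 0.15, limma adjusted p = 4.65e-08). As 5.76% of all kept probe sets were called higher there, nothing is read from this count. In recombined tissue minus Wk4, 14 of the 18 were higher and 0 lower, and 9 were higher without recombined replicate 1. They were led by the surface receptor gene Adgre1 (4.24 ± 0.35, limma adjusted p = 1.56e-07) and Cd68 (4.07 ± 0.35, adjusted p = 2.41e-07). Among all kept probe sets, 7.88% were called higher and 7.32% lower in that comparison. Lyz2 read 7254 ± 1278 (SD, n = 4) at E18 and 27897 ± 1704 (SD, n = 3) at Wk4, which made up most of the rise of the sum between them. In recombined tissue, where the sums were highest, Cd74 read 493 and 427 and RT1-Da 401 and 423. The Wk4 kidneys had lower sums and the high class II signals. Which cells gave the class II signals was not tested.

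**Figure D4:**
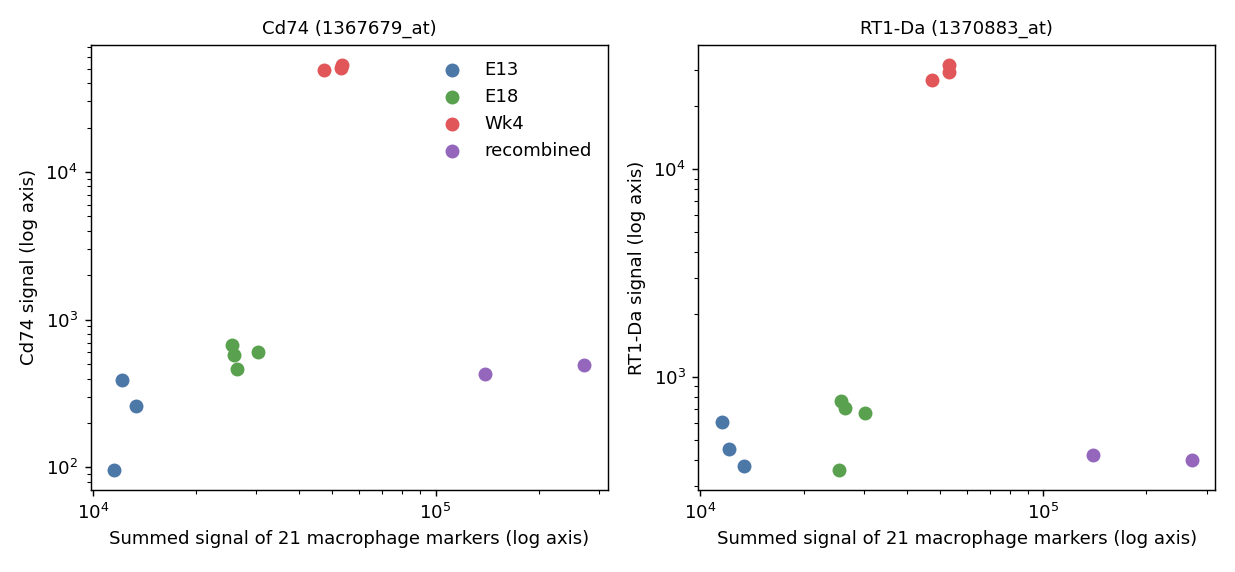
Signal of Cd74 (left) and RT1-Da (right) against the summed signal of 21 macrophage markers on each array, both axes log, with colours for the groups. The Wk4 arrays are high in class II at macrophage sums of 47225 to 53186, and the recombined tissues low in class II at 139775 and 271559.

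Dendritic cell markers differed in direction at Wk4. Of 7 tested, 0 rose and 2 fell in Wk4 minus E18, Cd83 (-2.09 ± 0.15, limma adjusted p = 3.62e-08) and the actin bundler gene Fscn1 (-2.04 ± 0.37, adjusted p = 0.000285), and both are also expressed outside dendritic cells. In that comparison 5.76% of all kept probe sets were called higher and 5.43% lower, so nothing is read from the 0 higher. The dendritic cell markers summed to 6276 to 7964 at Wk4, 11725 to 16878 at E18 and 13922 to 15434 in recombined tissue. Cd83, Fscn1 and Itgae made up most of that sum at E18. Itgae, too, had a lower mean at Wk4 (988 ± 127, SD, n = 3) than at E18 (3009 ± 406, SD, n = 4). Batf3 was level, with 743 ± 200 (SD, n = 4) at E18 and 730 ± 320 (SD, n = 3) at Wk4. The remaining markers had higher means at Wk4 than at E18. Flt3 read 48.7 ± 20.9 (SD, n = 4) at E18 and 262 ± 113 (SD, n = 3) at Wk4, and Clec9a 52.9 ± 42.5 (SD, n = 4) and 235 ± 206 (SD, n = 3); both were removed by the filter on dim probe sets. Clec10a, a lectin of dendritic cells and macrophages, read 465 ± 127 (SD, n = 4) and 1097 ± 341 (SD, n = 3), and Cd1d1, a lipid-presenting molecule, 987 ± 140 (SD, n = 4) and 1426 ± 138 (SD, n = 3), and neither passed 3-fold (limma adjusted p = 0.0114 and 0.0336). Itgax, the integrin CD11c of dendritic cells and macrophages, read 3031 ± 1576 (SD, n = 2) in recombined tissue and 291 ± 182 (SD, n = 3) at Wk4 (2.52 ± 0.35, adjusted p = 2.68e-05). Itgax was also higher than at E18 (3.18 ± 0.33, limma adjusted p = 7.64e-06), with 4145 and 1916 in recombined tissue and 18.6 to 135 at E18. It passed the filter through the recombined arrays alone, so with either of them left out it was not tested. In recombined minus Wk4 the list had 2 higher and 1 lower, and 1 higher and 0 lower without recombined replicate 1. The shares of all kept probe sets called were 7.88% higher and 7.32% lower.

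No tested lymphocyte marker was called in Wk4 minus E18, and the defining B cell markers were dim. In that comparison 5.76% of all kept probe sets were called higher and 5.43% lower. With so few markers tested, nothing is read from the counts of 0 calls below. Only 3 of 8 B cell markers passed the filter, and limma called 0 of them in Wk4 minus E18, with 1 at an unadjusted p under 0.05, Bank1 (1.02 ± 0.25, adjusted p = 0.00299). Cd79b, a chain of the B cell receptor, read 52.2 ± 11.4 (SD, n = 3) at Wk4, and Ms4a1, which encodes CD20, 169 ± 187 (SD, n = 3). The B cell markers summed to 5221 to 5946 at Wk4 and 3622 to 6233 at E18. Only 7 of 13 T cell markers passed the filter. Of these, limma called 0 in Wk4 minus E18, with 1 at an unadjusted p under 0.05, Lat, an adaptor of T cell receptor signals (-0.75 ± 0.22, adjusted p = 0.00985). Means of Lat, Lck, Cd5 and Cd8b were lower at Wk4 than at E18, and those of the other T cell markers were higher. Among the latter, Cd4 read 504 ± 279 (SD, n = 4) at E18 and 874 ± 212 (SD, n = 3) at Wk4, and these arrays overlapped. The T cell markers summed to 5296 to 6622 at Wk4 and 4927 to 6991 at E18. Endothelial markers, 10 tested, also gave 0 calls in Wk4 minus E18, with 5 at an unadjusted p under 0.05. In recombined minus E18, 7 of the 10 fell (4 without recombined replicate 1), beside 1.67% of all kept probe sets. They were led by Plvap (-3.23 ± 0.31, limma adjusted p = 3.79e-06) and Tek (-2.82 ± 0.16, adjusted p = 2.57e-08). The part of these cell types in the class II values was not tested.

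The genes most like the class II genes across the 12 arrays were high in the Wk4 kidneys. Likeness was Pearson's r between a gene's log2(signal + 271) and the mean of the 4 genes, each centred on its own mean, over 11916 genes, and it is a description. The 10 nearest were Igfals (r = 0.986), Tnfsf10 (0.983), Slc34a3 (0.983), Idh1 (0.982), Sirt3 (0.982), Tmbim6 (0.982), Mab21l3 (0.981), Gclc (0.981), Slc4a4 (0.980) and Acvr1c (0.980). Slc34a3 is a phosphate transporter and Slc4a4 a bicarbonate transporter of the proximal tubule, Gclc makes glutathione, and Tnfsf10 encodes the death ligand TRAIL. All 10 had their highest mean at Wk4, as Slc34a3 with 16730 ± 2541 (SD, n = 3) at Wk4, 489 ± 171 (SD, n = 4) at E18 and 202 ± 28.1 (SD, n = 2) in recombined tissue. Such an r mostly separates the 3 Wk4 arrays from the other 9, and 406 genes had an r of at least 0.95.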

How the data were processed

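Biotinylated cRNA was made from total RNA for Affymetrix arrays, per the labels' protocols. The deposited intensity of each probe set came from the authors' run of GCOS, which the submitters' processing notes name without version or settings. The mean without the lowest and highest 2% of values was 2500.6 to 2500.9 on every array, so each array had been scaled. Such values cannot show a change in the amount of RNA per cell. Detection calls were not used.

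Signals were used as log2(signal + 271), 271 being the 25th percentile of all values. Probe sets above the 40th percentile of their array on at least 2 arrays were kept, and 57 control probe sets were left out. All 12 arrays in 4 groups entered one fit in limma 3.58.1 (R 4.3.3; lmFit, eBayes with trend, 8 residual degrees of freedom), with two-sided tests and p-values adjusted by Benjamini-Hochberg over all 22599 kept probe sets. The steps were tested on simulated data. A gene was represented by its probe set of highest mean.

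Gene names came from the platform annotation, and 20758 of 20826 symbols were found by gene ID in the current rat table. The genes described and the lists (class II pathway, class I, interferon gamma response, costimulation, MIF receptor, dendritic, B cell, T cell, macrophage, kidney epithelium and endothelial markers) were chosen with earlier results of these data known. Text names come from a rule: the 4 genes, every measured class II pathway gene, the 2 called genes of largest difference per other list and comparison (or the 1 largest where none was called), and the 10 genes most alike. Other list members named serve as examples, chosen after their values were seen. Alternatives covered pseudocount, normalization, filter, replicate block, trend, arrays compared, call rule, probe set rule and each array left out.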

Additional observations from a re-analysis of the deposited data

Results flagged for a closer look

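On RT1-Ba 1377334_at, E18 replicate 2 stood apart from the other E18 arrays, with a signal of 284 against 88.2 to 111. Its gap to the nearest array was 0.885 of the range of the group, above Dixon's 95% limit for 4 samples. Chance alone marks about 1 in 20 groups, and 8 probe sets were examined at E18. All 4 signals were dim. The overlap of Wk4 replicate 1 (237) with the E18 arrays on this probe set rests on this array: without it, all Wk4 arrays were above all E18 arrays.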

How the results depend on the processing

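No direction of a member median or of a class II pathway count was reversed by any alternative. The median difference of the 4 genes moved by more than the spread of replicates in these settings. Without a pseudocount it was 1.40 in E18 minus E13, 4.77 in Wk4 minus E18, 5.64 in Wk4 minus E13, 1.05 in recombined minus E13 and -5.22 in recombined minus Wk4; with 4 times the pseudocount it was 0.29 in E18 minus E13, 3.24, 3.44 and -3.34 in the Wk4 comparisons, and 2 pathway genes were called in recombined minus E13. With each gene's probe sets averaged, the Wk4 comparisons gave 3.54, 3.87 and -3.63, and with Cd74 and RT1-Da alone, a choice made after seeing the data, 5.49, 5.99 and -5.78. At 2-fold, 3 pathway genes were called in E18 minus E13, 7 in recombined minus E13, 5 in recombined minus E18 and 5 in recombined minus Wk4; on adjusted p alone the counts were 4, 11 and 11 (E18 minus E13, Wk4 minus E18, Wk4 minus E13) and 10, 7 and 7 (recombined minus E13, E18 and Wk4). Leaving out each array in turn gave medians of 0.51 to 0.82, 3.93 to 4.46, 4.37 to 4.90, 0.19 to 0.65, -0.32 to -0.24 and -4.73 to -4.07, and counts of 0 to 0, 5 to 6, 6 to 6, 2 to 6, 2 to 4 and 3 to 3 (without recombined replicate 1, the last was 0 higher and 3 lower against 1 and 2) (E18 minus E13, Wk4 minus E18, Wk4 minus E13, recombined minus E13, E18 and Wk4). Replicate numbers did not pair the arrays: residuals of same-numbered arrays correlated between -0.17 and 0.31, and with the replicate block the medians were 0.70, 4.22, 4.61, 0.60, -0.18 and -4.34 and the counts 0, 6, 6, 3, 3 and 3. Residuals placed E13 replicate 1 with E18 replicates 1 to 3 and the other embryonic arrays together; with this set as a covariate, added after seeing the data, E18 minus E13 gave a median of 0.71 and 0 calls. Quantile normalization and median centring moved no count of pathway calls by over 1.5 times. The number of arrays, 2 for recombined tissue, limits every value.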
